A study of Mus musculus with 12 samples.

Results

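The 10 genes described here encode the core of transforming growth factor-β (TGF-β) signalling in regulatory T (Treg) cells: the ligand gene Tgfb1, 2 genes for ligand activation (Furin and Lrrc32), the receptors and coreceptors Tgfbr1, Tgfbr2, Tgfbr3 and Eng, and the signal transducers Smad2, Smad3 and Smad4. They were chosen by name, as genes of this pathway, and all 10 were measured, each by 1 transcript cluster (the set of probes the array assigns to one locus), among 22180 genes with a single symbol. RNA of CD4+YFP+ Treg cells sorted from spleen and lymph nodes was profiled on 12 Affymetrix arrays, 3 for each of 4 labelled genotypes. The Lkb1 comparison set Foxp3Cre/+Lkb1f/f cells, in which the kinase gene Lkb1 (Stk11) is floxed, against Foxp3Cre/+ cells, both labelled female. The TGF-βR2 comparison set Foxp3CreTgfbr2 f/f cells, in which Tgfbr2 is floxed, against Foxp3Cre cells, both labelled male.

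All 4 genotypes carry the YFP-Cre fusion in Foxp3, the gene of the transcription factor that defines Treg cells, so Cre acts in cells that use that allele. Because Foxp3 is X-linked, a heterozygous female also holds Treg cells that use the intact allele and escape both Cre and YFP, whereas a male has no such cells. Each genotype has 3 arrays that are labelled as biological replicates, and the p-values measure the spread between them. The sources used here do not give ages, nor whether an array holds 1 mouse or a pool.

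TGF-β is made as a latent precursor that the protease furin cuts and that GARP, encoded by Lrrc32, holds on the Treg cell surface until integrins release it. The free ligand binds the type II receptor (Tgfbr2), which phosphorylates the type I receptor (Tgfbr1), and betaglycan (Tgfbr3) and endoglin (Eng) assist the binding. The type I receptor phosphorylates Smad2 and Smad3, which enter the nucleus with the shared partner Smad4. In T cells this pathway supports Foxp3 expression and restrains effector functions, and Smad7 and Skil (SnoN) are well known target genes that feed back on the pathway.

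The DNA that Smads read is shown by the oligonucleotides that the study used for its Smad binding assay, printed because this motif is searched for in the receptor promoters. The capitals mark the palindrome GTCTAGAC, which the binding probe holds at 2 places and the mutated probe at 0, over 50 bases in each.
Smad-probe-F: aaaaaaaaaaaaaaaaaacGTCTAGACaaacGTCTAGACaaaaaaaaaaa
Smad mut-probe-F: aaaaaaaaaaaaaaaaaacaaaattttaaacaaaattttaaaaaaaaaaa

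The promoters of the 2 signalling receptors are shown because the mRNA of both is the centre of the comparisons. Each is the 250 bases before the RefSeq start (GRCm38.p6), read on the gene's own strand, Tgfbr1 from chr4:47352972-47353221 on the plus strand and Tgfbr2 from chr9:116175364-116175613 on the minus strand. The capitals mark GGCGC, a GC-rich Smad motif, or CAGAC, the short Smad box, found on either strand.
Tgfbr1: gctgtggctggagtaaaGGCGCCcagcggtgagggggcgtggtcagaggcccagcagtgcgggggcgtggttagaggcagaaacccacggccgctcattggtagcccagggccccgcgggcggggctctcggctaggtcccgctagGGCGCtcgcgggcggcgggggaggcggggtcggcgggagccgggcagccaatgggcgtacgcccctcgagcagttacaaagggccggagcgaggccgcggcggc
Tgfbr2: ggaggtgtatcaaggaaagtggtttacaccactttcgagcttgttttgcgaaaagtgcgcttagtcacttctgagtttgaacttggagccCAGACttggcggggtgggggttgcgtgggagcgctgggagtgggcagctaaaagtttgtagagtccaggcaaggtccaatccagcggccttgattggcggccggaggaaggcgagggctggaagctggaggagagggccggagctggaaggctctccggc

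The Tgfbr1 window held 3 matches of GGCGC, of which a pair overlaps in the palindrome GGCGCC, and 0 of CAGAC, and a window at another Tgfbr1 start (chr4:47385966-47386215, not shown) held 0 of GGCGC and 1 of CAGAC. The Tgfbr2 window held 1 match of CAGAC and 0 of GGCGC. Of 32851 promoter windows of the same length, 32% hold GGCGC and 42.2% hold CAGAC, so each match is a common one. The full palindrome of the assay probe was in 0.167% of the windows and in neither receptor window. Of the 10 genes, 6 had a window in the RefSeq table, and none of these held the palindrome. In the window at its first start Eng held 2 CAGAC, Tgfb1 held 1 GGCGC and Smad3 held neither. Furin held 2 CAGAC at one start and 1 CAGAC with 7 GGCGC at another. These are matches of letters and not sites shown to bind.

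Before the comparisons, 4 arrays stand apart. The deposited log2 values had an array median of 6.30 to 6.33 on 4 arrays, 1 per genotype, and of 5.48 to 5.60 on the other 8, called the higher- and lower-intensity arrays below. The higher-intensity arrays are replicate 3 of Foxp3Cre/+Lkb1f/f, Foxp3Cre/+ and Foxp3Cre, and replicate 1 of Foxp3CreTgfbr2 f/f. Values given below are the log2 value minus the array's own median, unless stated. On this scale Xist, which is transcribed from the inactive X of females, stood at 4.64, 4.37 and -1.24 on Foxp3Cre/+Lkb1f/f replicates 1, 2 and 3, against 4.73, 5.20 and -1.0 on the Foxp3Cre/+ replicates. It stood at 4.70, -0.40 and -0.93 on Foxp3CreTgfbr2 f/f replicates 1, 2 and 3, against -0.53, -0.76 and 4.54 on the Foxp3Cre replicates. The Y-linked gene Eif2s3y ran the opposite way on every array. The labelled sex therefore matched 8 of 8 lower-intensity arrays and 0 of 4 higher-intensity arrays. Whether these 4 arrays carry the right genotype label is not known, and every value over all arrays, or from the higher-intensity arrays, depends on it. Differences are therefore given with all arrays as labelled and, for the genes discussed, within the lower-intensity arrays alone (2 against 2). With 2 arrays against 2, full separation of a gene arises easily by chance, and its share over all genes was not counted. A genotype name below means the arrays labelled so.

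The target genes of the pathway divide the arrays in another way. Smad7, the inhibitory Smad, stood at 4.19, 3.04 and 0.56 on Foxp3Cre/+Lkb1f/f replicates 1, 2 and 3, against 3.98, 3.48 and 3.70 on the Foxp3Cre/+ replicates. It stood at 4.15, 0.30 and 0.48 on Foxp3CreTgfbr2 f/f replicates 1, 2 and 3, against 3.90, 3.45 and 4.13 on the Foxp3Cre replicates. Thus 3 arrays were low, both lower-intensity Foxp3CreTgfbr2 f/f arrays and the higher-intensity Foxp3Cre/+Lkb1f/f array, and the higher-intensity Foxp3CreTgfbr2 f/f array was not. Skil, which encodes a corepressor of Smads, was low on the same 3 arrays, with 0.24 on Foxp3Cre/+Lkb1f/f replicate 3 and 0.63 and 0.45 on Foxp3CreTgfbr2 f/f replicates 2 and 3, against 3.05 to 3.72 on the other 9 arrays.

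**Figure D1:**
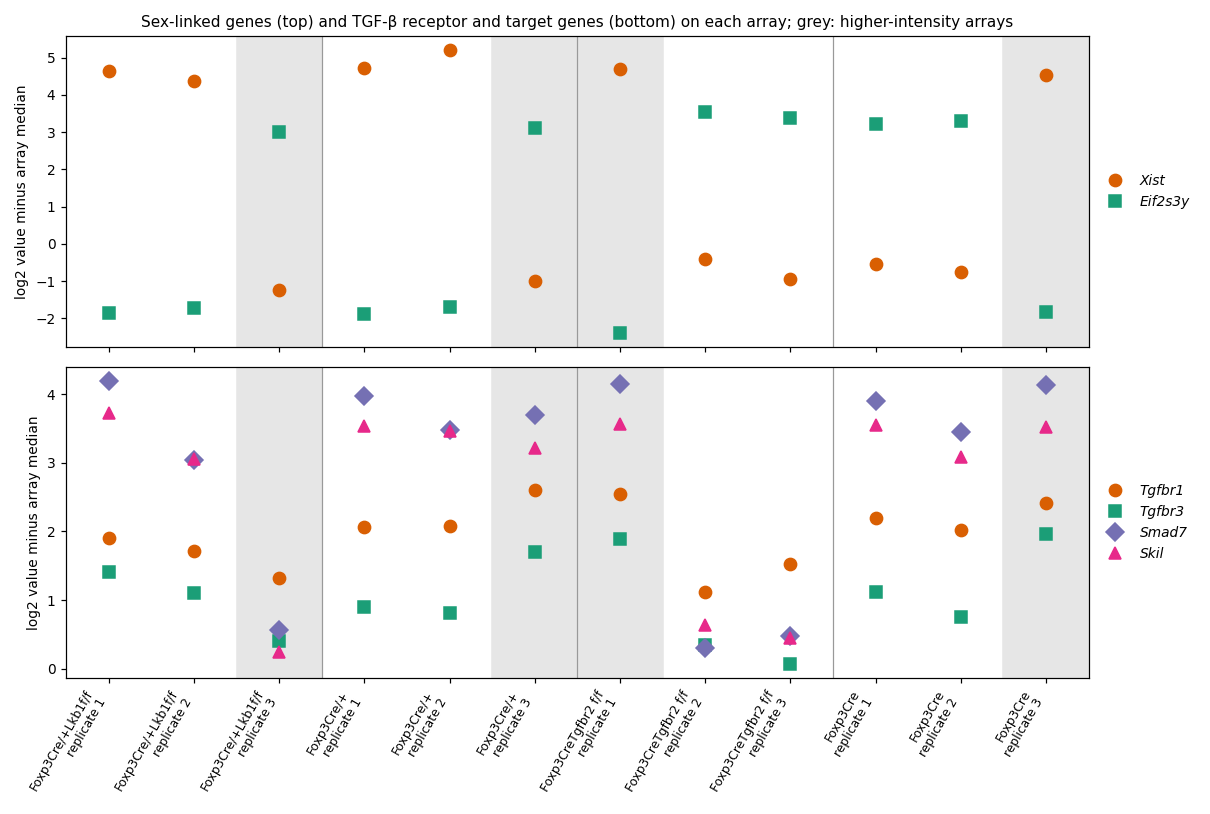
Log2 value minus the array median on each of the 12 arrays, with the higher-intensity arrays shaded; the top panel shows Xist and Eif2s3y and the bottom panel Tgfbr1, Tgfbr3, Smad7 and Skil. On the 4 shaded arrays Xist and Eif2s3y go against the labelled sex, and Smad7 and Skil are low on Foxp3Cre/+Lkb1f/f replicate 3 and Foxp3CreTgfbr2 f/f replicates 2 and 3.

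The floxed genes give a weak check of the genotype labels, since the sources used here give neither the exons removed nor the probe positions. Stk11 stood at 2.68, 2.33 and 3.27 on Foxp3Cre/+Lkb1f/f replicates 1, 2 and 3, against 2.96, 2.90 and 3.15 on the Foxp3Cre/+ replicates. Both lower-intensity knockout arrays were below every Foxp3Cre/+ array and the higher-intensity one was above. In the other comparison, where Stk11 is not labelled as floxed, it stood at 2.78, 3.03 and 3.33 on Foxp3CreTgfbr2 f/f replicates 1, 2 and 3. The Foxp3Cre replicates stood at 3.18, 2.80 and 3.05. There the higher-intensity knockout array was below every control array, though only narrowly below replicate 2. Treg identity genes were high throughout, with a mean of the 8-gene list between 4.69 and 5.13 on every array, in which the 4 genotypes overlapped.

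Compared with Foxp3Cre/+ cells, Foxp3Cre/+Lkb1f/f cells had a lower mean of Tgfbr1 (1.65 ± 0.30 against 2.25 ± 0.31, SD, n = 3 each), a 1.52-fold lower signal, and of Furin (2.96 ± 0.23 against 3.26 ± 0.064), a 1.24-fold lower signal. For these 2 genes, and for no other of the 10, every knockout array lay below every control array. None of the 10 passed the test across all transcript clusters (limma, Benjamini-Hochberg adjusted p = 1.00 for each), where 0% of 41345 transcript clusters passed. At an unadjusted p under 0.05 limma counted 1 of 10, Tgfbr1, beside 1.12% of all transcript clusters. With the replicate number as a block the unadjusted p of Tgfbr1 was 0.0646 and 0 of 10 genes were counted. With the intensity set as a block it was 0.0435 (limma), and 0 transcript clusters passed after adjustment. A mean at least 1.5-fold lower was seen for 1 of 10, beside 1.69% of all genes, and 1.5-fold higher for 0, beside 0.559%. Every knockout array was below the controls for 2 of 10, beside 2.08% of all genes, and above them for 0, beside 1.61%.

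Taking the genes by role, the ligand gene Tgfb1 stood at 4.26, 4.14 and 4.42 on Foxp3Cre/+Lkb1f/f replicates 1, 2 and 3, against 4.35, 4.36 and 4.46 on the Foxp3Cre/+ replicates. The groups overlapped with all arrays, though both lower-intensity knockout arrays were below both lower-intensity controls. The difference was -0.11 (standard error, SE, 0.16) with all arrays and -0.15 (SE 0.17) within the lower-intensity arrays. Lrrc32, the anchor of latent TGF-β, stood at 4.97, 4.04 and 4.72 in the knockout, against 4.37, 4.16 and 4.89 in Foxp3Cre/+. Its knockout arrays spanned the controls, and the difference was 0.10 (SE 0.31) with all arrays and 0.24 (SE 0.35) within the lower-intensity arrays. Furin stood at 2.69, 3.08 and 3.10, against 3.20, 3.26 and 3.33. The gap between its highest knockout and lowest control array was small beside the spread of the knockout arrays, and the difference was -0.31 (SE 0.18, exact permutation p = 0.10, two-sided and the lowest possible with 3 arrays a side), and -0.35 (SE 0.21) within the lower-intensity arrays.

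Among the receptors, Tgfbr1 stood at 1.91, 1.72 and 1.32 on Foxp3Cre/+Lkb1f/f replicates 1, 2 and 3, against 2.07, 2.08 and 2.61 on the Foxp3Cre/+ replicates. The lowest knockout and the highest control value were both from the higher-intensity arrays. Its difference was -0.61 (SE 0.24, limma unadjusted p = 0.0409, adjusted p = 1.00, exact permutation p = 0.10), made up of -0.26 within the lower-intensity arrays (SE 0.18, unadjusted p = 0.198) and -1.29 for the higher-intensity pair. Within the lower-intensity arrays 0 of 10 genes were counted at an unadjusted p under 0.05, beside 3.53% of transcript clusters, and 0 at 1.5-fold in either direction, beside 3.21% of genes lower and 1.02% higher. Without Foxp3Cre/+Lkb1f/f replicate 3 the difference of Tgfbr1 was -0.44 and without Foxp3Cre/+ replicate 3 it was -0.43, both under 1.5-fold.

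Tgfbr2 stood at 3.14, 2.37 and 2.71 in Foxp3Cre/+Lkb1f/f cells, against 2.78, 2.78 and 3.25 in Foxp3Cre/+ cells. Replicate 1 of the knockout was above both lower-intensity controls, and the difference was -0.19 (SE 0.25) with all arrays and -0.023 (SE 0.30) within the lower-intensity arrays. Tgfbr3 stood at 1.41, 1.10 and 0.40, against 0.90, 0.81 and 1.70. Its direction depended on the arrays: both lower-intensity knockout arrays were above both controls (difference 0.40, SE 0.20, limma unadjusted p = 0.0981), and the higher-intensity pair differed by -1.30, giving -0.17 (SE 0.35) in all. Eng stood at -0.042, 0.43 and -0.36, against -0.13, -0.23 and -0.35. It lay near the array median throughout, and its highest value, on Foxp3Cre/+Lkb1f/f replicate 2, was on the array with the highest mean of 9 endothelial and stromal marker genes (0.61, against 0.15 to 0.38 on the other arrays). The difference of Eng was 0.24 (SE 0.23) with all arrays and 0.37 (SE 0.23) within the lower-intensity arrays, where both knockout arrays were above both controls. The part of such cells in the Eng value was not tested.

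The Smad genes gave no separation of the genotypes. Smad2 stood at 2.83, 2.41 and 3.15 in Foxp3Cre/+Lkb1f/f cells, against 2.67, 2.82 and 3.35 in Foxp3Cre/+ cells. Smad3 stood at 1.28, 0.66 and 2.45, against 1.19, 1.02 and 2.26. Smad4 stood at 4.03, 3.39 and 3.48, against 3.48, 3.60 and 3.59. All 3 overlapped between genotypes, with differences of -0.15 (SE 0.27) for Smad2, -0.028 (SE 0.52) for Smad3 and 0.077 (SE 0.21) for Smad4, and the spread of Smad3 followed the intensity of the array. Within the lower-intensity arrays the differences were -0.12 (SE 0.22) for Smad2, -0.14 (SE 0.27) for Smad3 and 0.17 (SE 0.27) for Smad4. Over the 10 genes 7 had a lower mean in the knockout, 6 within the lower-intensity arrays and 9 in the higher-intensity pair. The median difference was -0.13, beside -0.023 over all genes, of which 12448 of 22180 had a lower mean, and 11966 within the lower-intensity arrays.

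**Figure D2:**
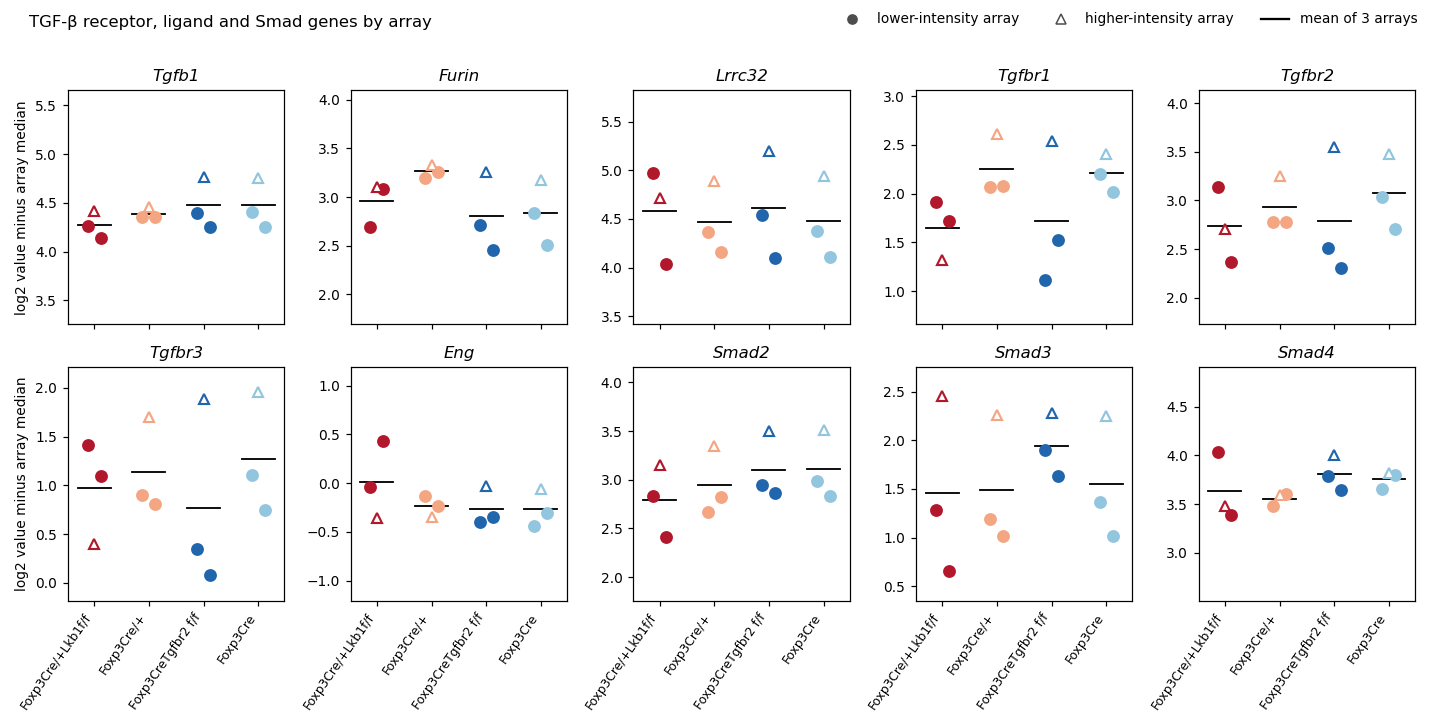
Log2 value minus the array median of each of the 10 genes, by labelled genotype; filled circles are lower-intensity arrays, open triangles higher-intensity arrays and bars the mean of 3 arrays. Tgfbr1 and Furin arrays do not overlap in the Lkb1 comparison, and Tgfbr1, Tgfbr2 and Tgfbr3 circles of Foxp3CreTgfbr2 f/f lie below those of Foxp3Cre while the triangles do not, or only slightly.

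Macrophage and B cell genes had lower means in this comparison, but the list means of the 2 genotypes overlapped. All 16 macrophage and monocyte markers and all 9 measured B cell markers had a lower mean in Foxp3Cre/+Lkb1f/f cells. The mean of the macrophage list was 0.77 to 1.45 in the knockout arrays, against 0.70 to 3.68 in the Foxp3Cre/+ arrays, the highest being Foxp3Cre/+ replicate 2, and 12 to 16 of the 16 markers lay above the array median. The B cell list spanned 0.15 to 1.5 in the knockout arrays, against 0.50 to 2.16 in the control arrays, the highest of each genotype being its higher-intensity array. Other lists went both ways. Lower means were seen for 4 of 6 dendritic cell, 3 of 9 endothelial and stromal and 2 of 5 platelet and megakaryocyte markers. The same held for 2 of 4 erythroid and 3 of 6 CD8 T and NK markers. Without Foxp3Cre/+ replicate 2, the array highest in macrophage genes, Tgfbr1 differed by -0.69. Replicate 3 was the array highest in B cell genes in each genotype. Tgfbr1 differed by -0.43 without that of Foxp3Cre/+ and by -0.44 without that of Foxp3Cre/+Lkb1f/f. The part of these cells in the differences was not tested, and in bulk RNA fewer cells of a type cannot be told apart from less RNA per cell.

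Compared with Foxp3Cre cells, Foxp3CreTgfbr2 f/f cells showed no separated gene among the 10 when all arrays were used, and lower receptor signals within the lower-intensity arrays. There, Tgfbr1, Tgfbr2 and Tgfbr3 were all lower on both knockout arrays than on both control arrays, by 0.47 to 0.79 on the log2 scale, and Smad3 was higher by 0.57. The largest, Tgfbr1, had a lower-intensity mean of 1.32 in the knockout, against 2.11 in Foxp3Cre. In the Lkb1 comparison the lower-intensity arrays separated likewise for Tgfb1, Furin and Tgfbr1 (lower) and for Tgfbr3 and Eng (higher). Separation of 2 arrays from 2 carries little weight by itself for Tgfbr1, Tgfbr2, Tgfbr3 and Smad3 in the TGF-βR2 comparison. At an unadjusted p under 0.05 limma counted these 4 of 10 genes within the lower-intensity arrays, beside 5.39% of all transcript clusters, and 0 of 10 with all arrays, beside 1.71%. The adjusted p was 0.795 or above within the lower-intensity arrays and 1.00 with all arrays, and 0% of transcript clusters passed. A difference of at least 1.5-fold lower was seen for 2 of 10 within the lower-intensity arrays, beside 0.861% of genes, and for 0 with all arrays, beside 0.424%. For 1.5-fold higher the counts were 0 in both, beside 0.663% and 0.167%. Over all arrays 0 of 10 were below, beside 2.27% of genes, and 0 above every control array, beside 2.37%.

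The floxed gene itself, Tgfbr2, stood at 3.55, 2.51 and 2.31 on Foxp3CreTgfbr2 f/f replicates 1, 2 and 3, against 3.04, 2.71 and 3.48 on the Foxp3Cre replicates. Replicate 1, the higher-intensity array, was above every control, and replicates 2 and 3 were below every control. The difference was -0.29 (SE 0.36) with all arrays and -0.47 (SE 0.17, limma unadjusted p = 0.0415, adjusted p = 0.911) within the lower-intensity arrays, and the higher-intensity pair differed by 0.067. Signal remained on the knockout arrays, which does not show whether the floxed exon was lost, since the place of the probes is not known here.

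Its partner Tgfbr1 stood at 2.54, 1.11 and 1.52 on Foxp3CreTgfbr2 f/f replicates 1, 2 and 3, against 2.20, 2.02 and 2.41 on the Foxp3Cre replicates. The same division appeared: replicate 1 was above every control and replicates 2 and 3 below. The difference was -0.49 (SE 0.35) with all arrays, -0.79 within the lower-intensity arrays (SE 0.18, limma unadjusted p = 0.00783, adjusted p = 0.795) and 0.13 for the higher-intensity pair. Tgfbr3 stood at 1.89, 0.35 and 0.075, against 1.11, 0.75 and 1.96, with differences of -0.50 (SE 0.52), -0.72 (SE 0.19, limma unadjusted p = 0.0127, adjusted p = 0.872) and -0.066 over the same sets of arrays. With all arrays and the intensity set as a block, the limma unadjusted p of Tgfbr3 was 0.0370 and the adjusted p 0.949. Eng, the other coreceptor, stood at -0.034, -0.40 and -0.35, against -0.44, -0.31 and -0.058, and its groups overlapped (difference 0.0081, SE 0.17, and 0.00018, SE 0.13, within the lower-intensity arrays).

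Smad3 ran opposite to the receptors. It stood at 2.28, 1.90 and 1.63 on Foxp3CreTgfbr2 f/f replicates 1, 2 and 3, against 1.37, 1.02 and 2.25 on the Foxp3Cre replicates. Within the lower-intensity arrays both knockout values were above both controls (difference 0.57, SE 0.18, limma unadjusted p = 0.0273, adjusted p = 0.911), whereas the higher-intensity pair differed by 0.030, giving 0.39 (SE 0.34) in all. Smad2 stood at 3.50, 2.95 and 2.86, against 2.99, 2.83 and 3.51, and Smad4 at 4.0, 3.79 and 3.64, against 3.65, 3.80 and 3.82. Both overlapped, with differences of -0.013 (SE 0.25) for Smad2 and 0.047 (SE 0.15) for Smad4 with all arrays, and -0.010 (SE 0.13) for Smad2 and -0.016 (SE 0.14) for Smad4 within the lower-intensity arrays.

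Ligand and activation genes were close between these genotypes. Tgfb1 stood at 4.77, 4.40 and 4.25 in Foxp3CreTgfbr2 f/f cells, against 4.41, 4.25 and 4.76 in Foxp3Cre cells, a difference of 0.0014 (SE 0.20). Lrrc32 stood at 5.20, 4.54 and 4.10, against 4.38, 4.11 and 4.94, a difference of 0.14 (SE 0.33). Furin stood at 3.26, 2.71 and 2.46, against 2.84, 2.51 and 3.17, a difference of -0.032 (SE 0.26). Within the lower-intensity arrays the differences were -0.0015 (SE 0.14) for Tgfb1, 0.078 (SE 0.20) for Lrrc32 and -0.095 (SE 0.18) for Furin. In each of the 3 genes the higher-intensity array was the highest of its genotype. Of the 10 genes 5 had a lower mean in the knockout, 7 within the lower-intensity arrays and 2 in the higher-intensity pair, and the median difference was -0.0057, beside 0.0052 over all genes. Of all genes, 10696 of 22180 had a lower mean, and 10021 within the lower-intensity arrays. Macrophage markers stayed low in this comparison (list means 0.058 to 0.52 in knockout arrays, against 0.017 to 0.49 in Foxp3Cre arrays), with 6 of 16 lower in the knockout.

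**Figure D3:**
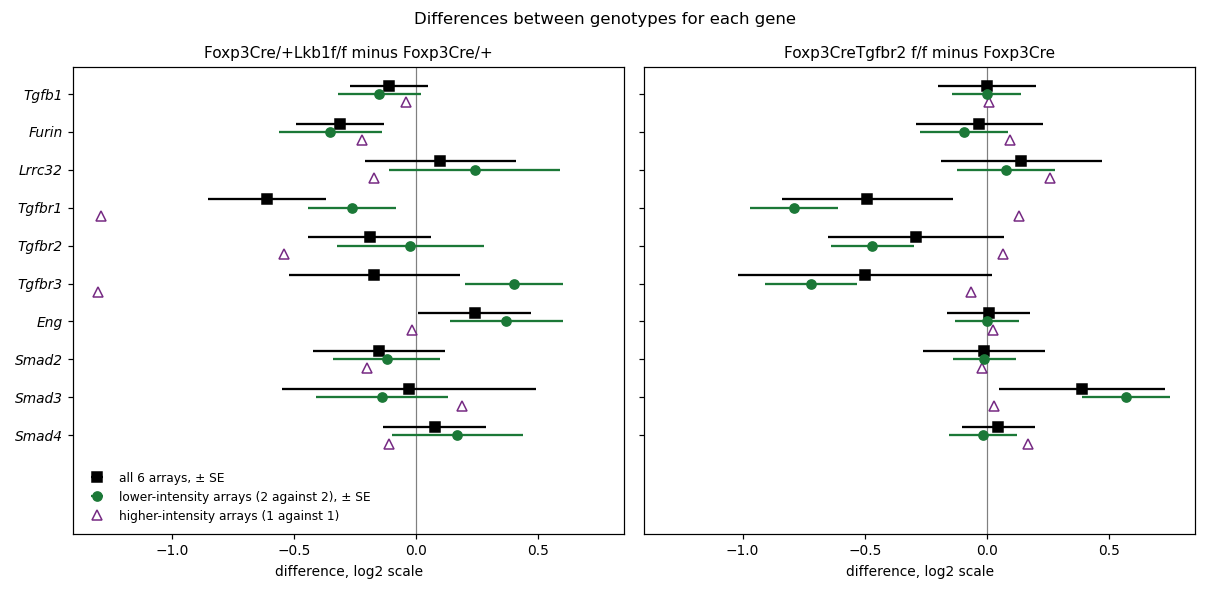
Difference of mean log2 value for each gene, Foxp3Cre/+Lkb1f/f minus Foxp3Cre/+ on the left and Foxp3CreTgfbr2 f/f minus Foxp3Cre on the right; squares are all 6 arrays and circles the lower-intensity arrays (bars ± SE), and triangles the higher-intensity pair. For Tgfbr1 the triangle is at -1.29 on the left and 0.13 on the right, and the circle at -0.26 on the left and -0.79 on the right.

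**Figure D4:**
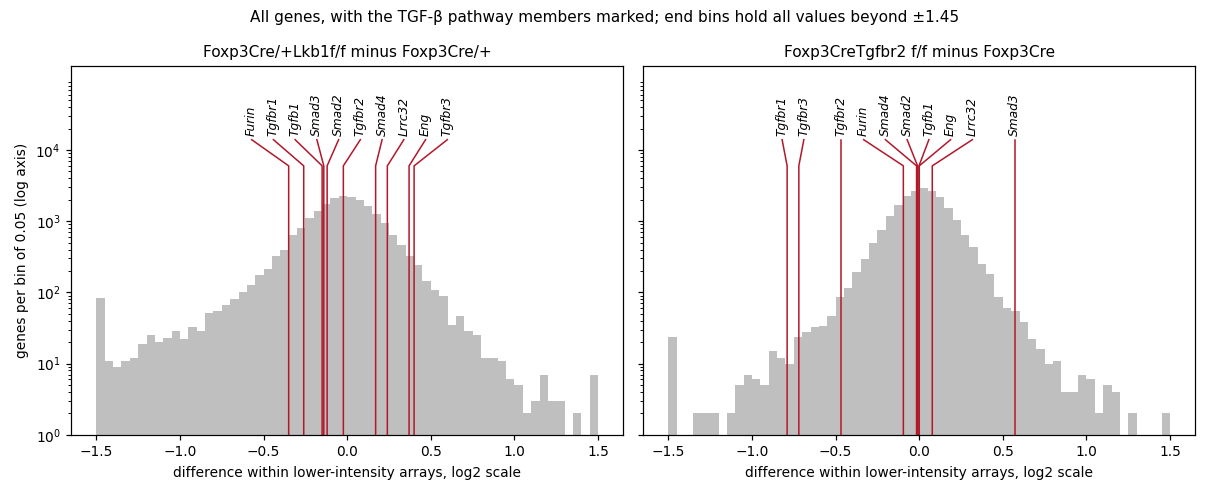
Number of genes (log axis) in each bin of 0.05 of the difference within the lower-intensity arrays on the log2 scale, Foxp3Cre/+Lkb1f/f minus Foxp3Cre/+ on the left and Foxp3CreTgfbr2 f/f minus Foxp3Cre on the right, with lines at the 10 genes. On the right Tgfbr1 (-0.79), Tgfbr3 (-0.72), Tgfbr2 (-0.47) and Smad3 (0.57) lie in the tails, and on the left the 10 genes span -0.35 to 0.40.

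The effects of the 2 knockouts were compared directly, as the Lkb1 difference minus the TGF-βR2 difference. With all arrays none of the 10 genes passed (limma adjusted p = 1.00 for each, 0% of transcript clusters called), and the largest was Smad3 at -0.42 (SE 0.68). Within the lower-intensity arrays Tgfbr3, higher than its control in one knockout and lower in the other, gave 1.12 (SE 0.27, unadjusted p = 0.00480, adjusted p = 0.722), Tgfbr1 gave 0.53 (SE 0.25, adjusted p = 0.995) and Smad3 -0.71 (SE 0.34, adjusted p = 0.995). The labelled sex and the experiment cannot be told apart in this contrast.

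Across the 4 genotypes the mean level of each gene kept a narrow range. Setting neighbouring genotypes in order of mean, the gap exceeded the larger of the 2 SDs only for Furin, between Foxp3Cre/+ (3.26 ± 0.064) and Foxp3Cre/+Lkb1f/f (2.96 ± 0.23). The genes also varied with the intensity of the array. Of the 10 genes 9 were higher on the higher-intensity arrays after centring, by 0.049 for Smad4 to 1.05 for Smad3, with Eng at -0.017, beside a median of 0.037 over all genes, of which 11961 of 22180 were higher. Smad3 averaged 2.31 on the 4 higher-intensity arrays and 1.26 on the 8 lower-intensity arrays.

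The rest of the pathway was followed in 5 lists, and 0 genes of any list passed the test in either comparison (limma, adjusted p = 1.00 for each gene named). The counts of lower means below stand beside 12448 of 22180 genes in Foxp3Cre/+Lkb1f/f cells and 10696 of 22180 in Foxp3CreTgfbr2 f/f cells. Of 18 other ligand and latency genes, 9 had a lower mean in Foxp3Cre/+Lkb1f/f cells and 8 in Foxp3CreTgfbr2 f/f cells. The genes named from each list are those with the lowest or highest moderated statistic (the difference over its SE), which need not have the largest difference. In the Lkb1 comparison the lowest statistic was that of Itgav, an integrin subunit gene whose product helps to release TGF-β, at 2.78 against 3.32 (difference -0.54, SE 0.23, and -0.77, SE 0.19, within the lower-intensity arrays). Nrp1, a surface coreceptor of Treg cells, had the larger difference there, at 3.21 against 4.31 (-1.10, SE 0.50, and -1.46, SE 0.29, within the lower-intensity arrays). The higher-intensity pair of that comparison differed by -0.072 for Itgav and by -0.37 for Nrp1. In the TGF-βR2 comparison Nrp1 had the lowest statistic, at 3.94 against 4.49 (-0.55, SE 0.22), made up of -0.29 (SE 0.16) within the lower-intensity arrays and -1.07 in the higher-intensity pair. The highest there was the protease gene Mmp9, at 0.94 against 0.31 (0.63, SE 0.36), with 0.99 (SE 0.16) within the lower-intensity arrays and -0.083 in the higher-intensity pair.

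Among 10 other type I and II receptors of the superfamily, 7 had a lower mean in Foxp3Cre/+Lkb1f/f cells and 5 in Foxp3CreTgfbr2 f/f cells. Acvr2a, an activin type II receptor, had the lowest statistic of the list in both. It stood at 0.40, 0.21 and 0.39 on Foxp3Cre/+Lkb1f/f replicates 1, 2 and 3, against 0.92, 1.60 and 1.03 on the Foxp3Cre/+ replicates, and at 0.48, 0.32 and 0.090 on Foxp3CreTgfbr2 f/f replicates 1, 2 and 3, against 0.80, 0.49 and 1.02 on the Foxp3Cre replicates. Every knockout array was below every control array in both comparisons, as for 2.08% of all genes in the Lkb1 comparison and 2.27% in the TGF-βR2 comparison. In the second the nearest pair was 0.48 against 0.49. The differences were -0.85 in the Lkb1 comparison (SE 0.22, limma unadjusted p = 0.00695) and -0.47 in the TGF-βR2 comparison (SE 0.19, limma unadjusted p = 0.0402). Acvr2a was named for its statistic, so these p-values are those of a selected gene. Its highest control value, 1.60, was on Foxp3Cre/+ replicate 2, the array with the highest macrophage list mean (3.68). Unlike Tgfbr1, Acvr2a was lower in both sets of arrays in both comparisons: the higher-intensity pairs differed by -0.64 in the Lkb1 comparison and by -0.53 in the TGF-βR2 comparison. This was not particular to Acvr2a. Nrp1, Bambi and Traf6, picked from the other lists by the same rule, were also lower in both sets in both comparisons.

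Of 19 measured receptor and Smad regulators, 12 had a lower mean in Foxp3Cre/+Lkb1f/f cells and 8 in Foxp3CreTgfbr2 f/f cells. The lowest statistics were those of the ubiquitin ligase gene Smurf2 in the Lkb1 comparison (difference -0.36, SE 0.21, and -0.16, SE 0.19, within the lower-intensity arrays) and the pseudoreceptor gene Bambi in the TGF-βR2 comparison (-0.38, SE 0.23, and -0.34, SE 0.26). In the TGF-βR2 comparison Smurf2 had a larger difference than Bambi (-0.42, SE 0.27, and -0.66, SE 0.12, within the lower-intensity arrays). The higher-intensity pair of that comparison differed by 0.069 for Smurf2 and by -0.45 for Bambi. In the Lkb1 comparison that pair differed by -0.77 for Smurf2. Of 16 other Smads and nuclear partners, 11 had a lower mean in Foxp3Cre/+Lkb1f/f cells and 9 in Foxp3CreTgfbr2 f/f cells, and the lowest statistics were those of Smad7 in the Lkb1 comparison (difference -1.12, SE 0.84) and Skil in the TGF-βR2 comparison (-1.83, SE 0.79), where Smad7 had the larger difference (-2.18, SE 0.97). All 3 rest on the 3 low arrays described above: Smad7 differed in the Lkb1 comparison by -0.11 within the lower-intensity arrays and by -3.14 in the higher-intensity pair, and Skil in the TGF-βR2 comparison by -2.78 within the lower-intensity arrays and by 0.058 in the higher-intensity pair. Smad7 differed in the TGF-βR2 comparison by -3.28 within the lower-intensity arrays and by 0.020 in the higher-intensity pair. Of 10 genes of the Smad-independent branch, 9 had a lower mean in Foxp3Cre/+Lkb1f/f cells and 4 in Foxp3CreTgfbr2 f/f cells. The list median in the Lkb1 comparison was -0.13, beside -0.023 over all genes. None of these 10 genes reached an unadjusted p under 0.05 (limma), and their extremes in the Lkb1 comparison were Mapk14 (-0.21, SE 0.23) and Tab1 (0.037, SE 0.23).

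Over the 8 lower-intensity arrays, which share their scale and hold 4 genotypes, the genes with the most similar profile were listed by Pearson's r among 10767 candidates, as a description. For Tgfbr1 they were Ldlrad4 (0.956), a negative regulator of TGF-β signalling, Apol9b (0.944), Tsc22d1 (0.940), which is known as TGF-β-stimulated clone 22, Snx31 (0.939) and Tbc1d4 (0.937). Smad7 (0.90) held rank 9 and Skil (0.88) rank 18, whereas Tgfbr2 reached 0.66, Tgfbr3 0.64 and Smad3 -0.60. Both Foxp3CreTgfbr2 f/f arrays among the 8 were low for Tgfbr1, Smad7 and Skil alike. For Tgfbr2 the closest were Skp1 (0.980), Ppp1r13b (0.973), Prkch (0.956), Foxn3 (0.955) and Dynll1 (0.943), and for Lrrc32 Mef2d (0.992), Ppp1r2 (0.976), Fyttd1 (0.973), Zfas1 (0.964) and Wdr66 (0.962). The r of Tgfbr1 with Lrrc32 was -0.07.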

How the data were processed

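CD4+YFP+ Treg RNA was hybridized to Affymetrix Mouse Genome 2.0 arrays, and the authors processed the scans with Agilent GeneSpring GS 11 and deposited log2 values for 41345 transcript clusters on 12 arrays, running from 1.94 to 14.0; how they were summarized and normalized is not stated in the sources used here. Precision is limited by the 3 arrays per genotype. Symbols came from the platform annotation, updated to RefSeq GRCm38.p6: 23521 clusters have 1 symbol, 1820 several and 16004 none. For a gene with several clusters the one with the highest mean was used. Coordinates of the transcript clusters are not printed because the build of the array annotation is not given; those of the promoter windows are RefSeq's.

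Each array was centred on its own median. Each knockout was compared with its control by limma 3.58.1 in R 4.3.3 (lmFit, eBayes, no covariate, no filter), 3 arrays against 3, with p-values adjusted over every transcript cluster (Benjamini-Hochberg) and called under 0.05. Single genes were also compared by two-sided exact permutation. Arrays were divided into intensity sets at a median of 6.

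The 10 genes, the pathway and marker lists and the tests were chosen with earlier results of these data known. Named genes were all 10, the highest and lowest moderated statistic of each pathway list in each comparison, and the 5 most similar genes to Tgfbr1, Tgfbr2 and Lrrc32, leaving out predicted loci, microRNAs, antigen receptor segments and odorant or pheromone receptors. Stk11, and Smad7, Skil, Nrp1 and Smurf2 outside the comparison in which the rule names them, were added with their values known.

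Whether replicate numbers pair the arrays was checked from how deviations from each genotype's mean correlate. Same-numbered arrays had r of 0.39, 0.30 and 0.74 in the Lkb1 comparison, the last being the higher-intensity pair. All were above 0.1, and the number was used as a block there. Differently numbered lower-intensity arrays reached 0.45 (knockout replicate 2 with control replicate 1) and 0.11 (knockout replicate 1 with control replicate 2). The numbers are therefore not shown to pair the lower-intensity arrays. In the TGF-βR2 comparison same-numbered arrays had r of -0.52, 0.23 and -0.57, and the numbers pair nothing. Alternatives were uncentred values, quantile normalization, the intensity set or the replicate number as a block, all arrays in one model, array weights, a robust prior with trend, a filter on level, the methods' t-test and the removal of each array. Promoter windows were read from RefSeq tables, and each motif was searched on both strands.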

Additional observations from a re-analysis of the deposited data

How the results depend on the processing

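No transcript cluster passed the adjusted threshold in either comparison, or in the difference between the effects, under any alternative that was run, so no call was lost or gained; the smallest adjusted p, 0.0522, came in the TGF-βR2 comparison without Foxp3CreTgfbr2 f/f replicate 1. At an unadjusted p under 0.05, limma counted 462 transcript clusters in the Lkb1 comparison, 706 in the TGF-βR2 comparison and 406 in the difference between the effects, and the methods' t-test counted 675 and 902 in the 2 comparisons. With a replicate block 0 transcript clusters passed in each comparison, and the Tgfbr1 difference stayed at -0.61 in the Lkb1 comparison (SE 0.25, unadjusted p = 0.0646); the block changed no call.

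In the Lkb1 comparison array weights gave 4 of 10 genes with a lower mean, against 7 without them, and turned the differences of Tgfbr2 to 0.10, Tgfbr3 to 0.32 and Smad3 to 0.14. Within the lower-intensity arrays Tgfbr3 turned to 0.40. Between the higher-intensity arrays Tgfbr1 moved to -1.29, Tgfbr2 to -0.54 and Tgfbr3 to -1.30. Smad3 was 0.0066 with uncentred values and 0.0040 with quantile normalization. Leaving out each array, the count of lower genes ran from 4 (without Foxp3Cre/+ replicate 3) to 8, and the differences from -0.091 to 0.37 for Lrrc32, -0.39 to 0.12 for Tgfbr3, -0.32 to 0.055 for Smad2, -0.52 to 0.38 for Smad3 and -0.12 to 0.20 for Smad4, while Tgfbr1 ran from -0.74 to -0.43.

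In the TGF-βR2 comparison 2 of 10 genes were lower between the higher-intensity arrays, against 5 in all, and Tgfbr1 moved to 0.13. Tgfb1 turned to -0.0064 with uncentred values, -0.017 with quantile normalization, -0.031 with array weights and -0.0015 within the lower-intensity arrays, and Smad4 to -0.0041 with array weights and -0.016 within the lower-intensity arrays. Leaving out each array, the count of lower genes ran from 3 to 9 (without Foxp3CreTgfbr2 f/f replicate 1), and the differences from -0.14 to 0.14 for Tgfb1, -0.26 to 0.14 for Furin, -0.15 to 0.40 for Lrrc32, -0.11 to 0.11 for Eng, -0.21 to 0.19 for Smad2 and -0.048 to 0.13 for Smad4, while Tgfbr1 ran from -0.89 to -0.18.

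In the difference between the effects Lrrc32 turned to 0.0073 with uncentred values, 0.017 with quantile normalization, 0.47 with array weights and 0.16 within the lower-intensity arrays, and Tgfbr1 to 0.35 with array weights and 0.53 within the lower-intensity arrays. Leaving out each array it ran from -0.26 to 0.029 for Tgfb1, -0.29 to 0.26 for Lrrc32, -0.42 to 0.29 for Tgfbr1, -0.14 to 0.48 for Tgfbr2, -0.013 to 0.90 for Tgfbr3, -0.33 to 0.068 for Smad2 and -0.17 to 0.15 for Smad4.

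The cause of these shifts was not tested. Eng has no value with the filter on level, because its mean lies below the array median, and each of the 10 genes has 1 transcript cluster, so other clusters could not be tried. The main limit is that 4 of 12 arrays go against their labelled sex and differ in intensity, and that 2 against 2 arrays remain without them. With 1 higher-intensity array per genotype no test is possible between those arrays.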
